A study of Homo sapiens with 36 samples.

Results

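MEIS2 activation was examined in cultured human neural stem cells (hNSC), by comparing 6 MEIS2-OE libraries with 6 ctrl-OE libraries out of the 36 RNA-seq libraries of the study. A gene belonged to the comparison if at least 10 reads were counted on it over these 12 libraries, which held for 18336 of the 28516 genes listed. In MEIS2-OE, cells received lentiviral vectors for CRISPR activation, namely a Cas9 that cannot cut fused to VP64, the MS2-p65-HSF1 activator and a guide RNA directed at the MEIS2 promoter. The ctrl-OE cells carried the same activation system with a non-targeting guide, so the activators are shared by both groups. The paper gives the same volume of each virus per dish, but the viral load of the cells is not given in the sources used here. All cells were commercially supplied hNSC, and all were harvested 48 h after infection. MEIS1-OE (the same system aimed at the paralog MEIS1), MEIS2-KO (Cas9 that cuts the MEIS2 coding sequence) and ctrl-KO (cutting Cas9 with a non-targeting guide) each have 6 libraries and are used below for comparison. The guide raised the endogenous gene in bulk cultures, so its level per cell was not measured.

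MEIS2 encodes a homeodomain transcription factor of the TALE class, whose members bind DNA together with PBX partners. It is known from the development of the striatum, of olfactory bulb interneurons, of the retina and of the limbs. CRISPR activation recruits the activators to the DNA that pairs with the guide, provided that the site ends with a short protospacer-adjacent motif (PAM), NGG. Pairing is most stringent over the letters next to the PAM, called PAM-proximal or seed letters.

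The reads assigned to genes numbered 20164616 to 22940493 per ctrl-OE library and 17872897 to 21586944 per MEIS2-OE library. The 10 most abundant genes took 5.62% to 6.86% of a library. Expression is given as CPM, counts scaled to the library totals after TMM normalization, which compares the same gene between libraries but not different genes. Fold changes are MEIS2-OE over ctrl-OE on the log2 scale, tested with the quasi-likelihood F test of edgeR (two-sided) with Benjamini-Hochberg adjustment across the whole set of tested genes. A gene is termed called where its adjusted p was under 0.05 and its log2 fold change beyond 0.58 in either direction. The labels do not say whether the 6 libraries of a group came from separate cultures, so p-values measure the spread between these libraries, which may be technical. The library ctrl-OE replicate 6 stood apart from the other controls for 11 of the named genes, and with this library left out 87 genes were called instead of 83. The neural stem cell markers NES (986 CPM on average in ctrl-OE and 958 in MEIS2-OE), VIM (2094 and 2107) and SOX2 (120.1 and 126) were abundant in both groups. EMX2 and OTX2, markers of the forebrain, did not reach 10 counts. The pluripotency factor POU5F1 averaged 0.163 CPM in ctrl-OE and NANOG did not reach 10 counts. Other genes of the pluripotency list were abundant in ctrl-OE, namely LIN28A (317 CPM), LIN28B (167), DPPA4 (124) and DNMT3B (81.8). Of the 6 members tested, 2 averaged under 1 CPM, and the other members of the 12 did not reach 10 counts.

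MEIS2 mRNA was strongly increased in MEIS2-OE. It ranged from 21.8 to 25.2 CPM (median 23.8) in ctrl-OE and from 842 to 886 CPM (median 872) in MEIS2-OE. All MEIS2-OE libraries lay far above all ctrl-OE libraries, with 15552 to 19059 counts on MEIS2 against 481 to 575. The difference was log2 fold change 5.19, standard error 0.04, adjusted p = 1.2e-21. The paralog MEIS1 ranged from 16.7 to 19.5 CPM (median 19.01) in ctrl-OE and from 16.5 to 20.2 CPM (median 17.4) in MEIS2-OE, where the groups overlapped (log2 fold change -0.08, standard error 0.07, adjusted p = 0.93). In GRCh37 the gene MEIS2 occupies chr15:37181405-37393500, minus strand.

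Among the tested genes 83 were called (0.453%). Of these, 74 were higher in MEIS2-OE (0.404%) and 9 lower (0.0491%). Without the threshold on the fold, 212 genes had an adjusted p under 0.05 (1.16%), 178 of them higher (0.971%) and 34 lower (0.185%). With the replicate number as a block, which pairs libraries of the same number, 100 genes were called, the number of genes called lower rose to 15 and the number passing at adjusted p alone to 582, with 2.11% of all tested genes higher and 1.07% lower. Of the 83 calls, 80 were also made with the block. Changes of the called genes varied widely. The median log2 fold change of the 74 was 1.15, 42 of them exceeded 1 and 18 exceeded 2. In 65 of the 74, all MEIS2-OE libraries lay above all ctrl-OE libraries, and in 7 of the 9 all lay below, whereas the groups did not overlap in 1.42% of all tested genes. In 16 of the 74 the mean level was under 1 CPM, so that their fold changes rest on few reads.

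**Figure D1:**
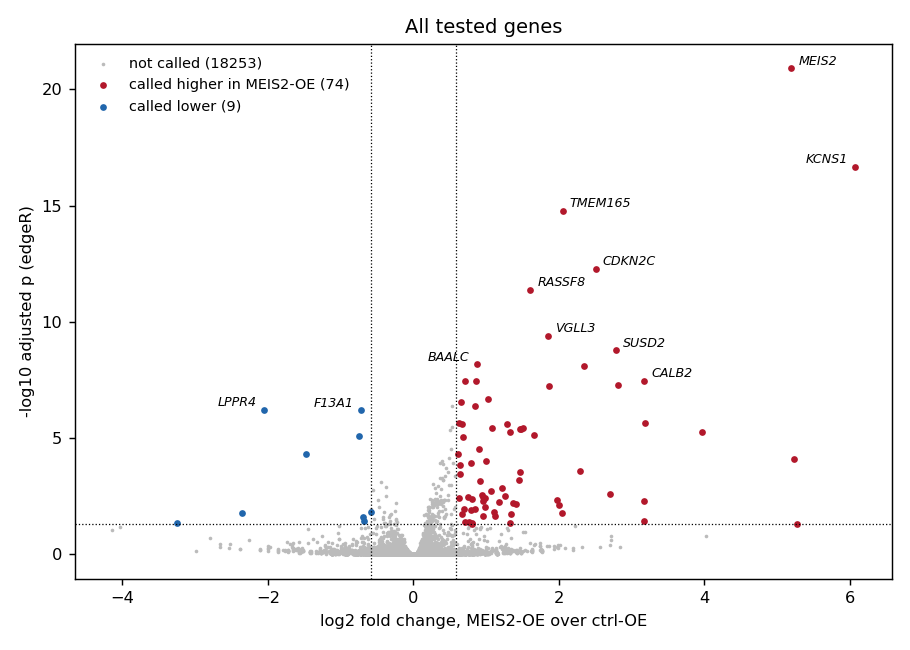
Each point is a tested gene, with the log2 fold change of MEIS2-OE over ctrl-OE on the x axis and the -log10 adjusted p of edgeR on the y axis; dotted lines mark the thresholds for a call. The 74 genes called higher outnumber the 9 called lower, and MEIS2 and KCNS1 have the smallest adjusted p, at log2 fold changes of 5.19 and 6.08.

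A recurring sequence was found at the start sites of MEIS2 and of the 4 genes with the next smallest p, and it is shown here before their values. Positions were found for 16199 of the 18336 tested genes (88.3%), 73 of them called higher. All 2938 sites of 20 letters followed by NGG within 1000 bases of an annotated MEIS2 start were searched for, on both strands, by their 11 PAM-proximal letters around the start sites of these genes. In 2743 of the sites no other gene that held the letters was called higher. For 22 sites at least 3 such genes were called, and these were ranked by the share of holders that were called. The leading site lies at chr15:37392720-37392742 on the minus strand, in an exon of MEIS2 outside the coding sequence, with its centre on an annotated start. Its 11 letters, GAGGCTCGGCG, are held by 17 genes or 0.105% of those with a position. Besides MEIS2, 10 of the other 16 were called higher (62.5%), whereas the second site in the ranking reached 5.48% (4 of 73). The site was chosen with the fold changes in view, so these shares describe the data and carry no test. The genome letters of MEIS2 and of the other called genes with 10 or more of these letters are printed below (GRCh37, 5′ to 3′), except RASSF8-AS1, which shares the site of RASSF8; capitals mark the unbroken run shared with the MEIS2 site and the last 3 letters are the PAM.
MEIS2, chr15:37392720-37392742, minus: TGCATATCAGAGGCTCGGCGcgg
TMEM165, chr4:56261683-56261705, plus: ggtggcaCAGAGGCTCGGCGggg
STIM2, chr4:26863185-26863207, minus: tgccgtcgAGAGGCTCGGCGagg
KCNS1, chr20:43729658-43729680, minus: ctgcagcagGAGGCTCGGCGggg
CDKN2C, chr1:51435212-51435234, plus: acggcctctGAGGCTCGGCGggg
RASSF8, chr12:26111740-26111762, minus: gggaagggcGAGGCTCGGCGagg
PRRT4, chr7:128001393-128001415, minus: cccttttcgGAGGCTCGGCGagg
PTPRU, chr1:29563259-29563281, minus: acgggccccGAGGCTCGGCGggg
PDE8B, chr5:76506570-76506592, plus: cggtccccgGAGGCTCGGCGggg
NBL1, chr1:19970867-19970889, minus: gcgccccagGAGGCTCGGCGagg
NACAD, chr7:45128556-45128578, minus: gtggccgcgcAGGCTCGGCGggg
GDAP1L1, chr20:42875879-42875901, plus: ggagaggggcAGGCTCGGCGagg
ATP13A2, chr1:17338391-17338413, plus: ctgggccaccAGGCTCGGCGcgg

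The share of called genes rose with the length of the run. Of 15709 genes with fewer than 8 shared letters, 0.325% were called higher. The share was 0.763% of 262 genes with 8 letters, 3.19% of 188 genes with 9 letters and 13.04% of 23 genes with 10 letters. With 11 letters or more it was 64.7% of 17 genes, MEIS2 included, and 82.4% (14 genes) were higher at an adjusted p under 0.05. None of the genes with 8 or more letters was called lower, but only 7 of all 16199 genes with a position were, so this absence carries little information. Of the 18 genes called higher with a log2 fold change above 2, 7 held 10 letters or more, MEIS2 included. The other 11 were not found to hold them, which takes in any gene without a position. Among all 16199 genes with a position, 40 held 10 letters or more. The number called higher with 11 letters or more was 8 of 11 when the window was 250 bases, 10 of 16 at 500 bases and 12 of 19 at 2000 bases.

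**Figure D2:**
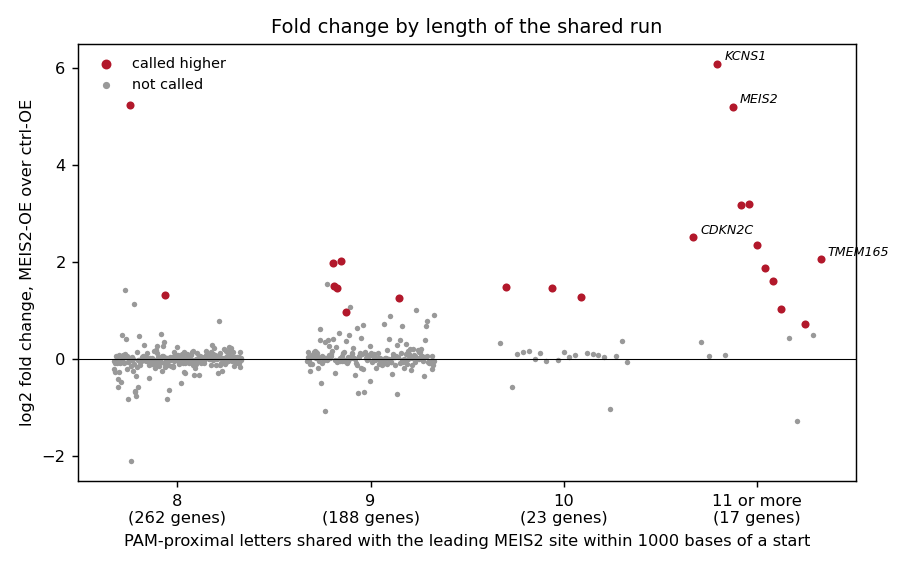
Each point is a gene, placed by the number of PAM-proximal letters it shares with the leading MEIS2 site within 1000 bases of a start (x axis) and by its log2 fold change of MEIS2-OE over ctrl-OE (y axis); positions within a column carry no meaning. Genes with 8 letters centre on 0, while 11 of the 17 genes with 11 or more letters are called higher (red).

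The site lay close to a start in most holders, called or not, and only sites within 1000 bases of a start were searched. Among holders that were not called, the centre lay 20 bases after a start in ITPKB and 22 in UBE2B, but 874 in SLC7A5 and 959 in SOX30. Of the 13 called genes with 10 letters or more besides MEIS2, 11 had the centre of the site within 300 bases of an annotated start, and the distances ranged from 694 bases before to 254 bases after it. In 10 of them the site lay in an exon outside the coding sequence, in 2 in an intron and in 1, TMEM165, outside the gene. Outside the run the letters differed: the 20 letters of KCNS1 differed from those of MEIS2 at 9 positions, those of TMEM165 at 6 and those of STIM2 at 5. The activation guide that the study lists for MEIS2 matches other letters in the same window, and no gene called higher besides MEIS2 holds the 11 PAM-proximal letters of that guide. Whether the activators were present at any of these sites was not measured, and the part of the letters in the result was not tested.

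After MEIS2, the genes with the smallest p of all tested genes were KCNS1, TMEM165, CDKN2C and RASSF8, each of which held 11 letters or more. KCNS1 encodes a subunit that modifies Kv2 potassium channels. It ranged from 1.02 to 1.53 CPM (median 1.22) in ctrl-OE and from 73.1 to 95.5 CPM (median 84.4) in MEIS2-OE, from a nearly silent to a readily detected transcript. The groups were far apart (log2 fold change 6.08, standard error 0.10, adjusted p = 2.1e-17). Of the 13 tested genes with a start within 500 kb of KCNS1, none passed at an adjusted p under 0.05 by edgeR, 2 had an unadjusted p under 0.05 and 1, SDC4, passed by DESeq2. TMEM165, a transporter of calcium and manganese in the Golgi apparatus, ranged from 41.7 to 46.1 CPM (median 43.3) in ctrl-OE and from 166 to 188 CPM (median 183) in MEIS2-OE. All MEIS2-OE libraries were above all controls (log2 fold change 2.05, standard error 0.04, adjusted p = 1.7e-15). Of the 6 tested genes with a start within 500 kb of TMEM165, 2 passed at an adjusted p under 0.05 by edgeR and 1, SRD5A3, was called. CDKN2C encodes p18-INK4C, an inhibitor of the kinases CDK4 and CDK6. It ranged from 4.99 to 6.17 CPM (median 5.58) in ctrl-OE and from 28.04 to 34.3 CPM (median 31.7) in MEIS2-OE, again without overlap (log2 fold change 2.50, standard error 0.08, adjusted p = 5.2e-13). FAF1, whose start lies 478 bases from that of CDKN2C, had a log2 fold change of -0.03 (adjusted p = 0.97).

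RASSF8, a RAS association domain gene linked to cell adhesion, and its antisense RNA RASSF8-AS1 rose together. RASSF8 ranged from 63.6 to 72.1 CPM (median 66.2) in ctrl-OE and from 177 to 225 CPM (median 212) in MEIS2-OE (log2 fold change 1.60, standard error 0.06, adjusted p = 4.1e-12). RASSF8-AS1 ranged from 10.4 to 12.97 CPM (median 11.6) and from 21.6 to 26.8 CPM (median 23.03) in the same order of groups (log2 fold change 1.03, standard error 0.08, adjusted p = 2.1e-07). In both, all MEIS2-OE libraries exceeded all controls. Their starts lie 1533 bases apart and the strand setting of the counting is not given in the sources used here, so reads of the pair may not be fully separated. PTPRU, a receptor tyrosine phosphatase of cell contacts, ranged from 13.6 to 22.05 CPM (median 16.4) in ctrl-OE and from 52.3 to 76.3 CPM (median 57.1) in MEIS2-OE. The groups did not overlap (log2 fold change 1.86, standard error 0.13, adjusted p = 5.7e-08). STIM2, a sensor of calcium in the endoplasmic reticulum, changed less, from 40.4 to 45.8 CPM (median 42.9) to 66.1 to 73.8 CPM (median 71.1), with no overlap between groups (log2 fold change 0.71, standard error 0.05, adjusted p = 3.3e-08). PRRT4, a proline-rich membrane protein gene, ranged from 0.947 to 1.70 CPM (median 1.37) in ctrl-OE and from 6.15 to 8.09 CPM (median 6.44) in MEIS2-OE (log2 fold change 2.34, standard error 0.13, adjusted p = 7.5e-09). PDE8B, a cAMP phosphodiesterase, had 1 to 5 counts in the ctrl-OE libraries and 18 to 28 in MEIS2-OE (log2 fold change 3.18, standard error 0.28, adjusted p = 2.3e-06). NBL1, a BMP antagonist, had at most 4 counts in a ctrl-OE library and 7 to 29 in MEIS2-OE, and was the only holder of 11 letters whose call was lost under some alternative settings.

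With 10 shared letters, ATP13A2, NACAD and GDAP1L1 were called. ATP13A2, a lysosomal polyamine transporter whose loss causes a form of parkinsonism, ranged from 40.8 to 71.9 CPM (median 49.2) in ctrl-OE and from 116 to 181 CPM (median 135) in MEIS2-OE. All MEIS2-OE libraries were above all controls (log2 fold change 1.48, standard error 0.14, adjusted p = 4.2e-06). NACAD had a log2 fold change of 1.28 and GDAP1L1 of 1.47, and both showed no overlap between groups. Holders of 11 letters that were not called differed among themselves. TENM3, a teneurin of synaptic wiring (log2 fold change 0.48, standard error 0.06, adjusted p = 7.0e-05), the GTPase gene RHOG (log2 fold change 0.42, standard error 0.07, adjusted p = 0.0046) and HK2, a hexokinase of glycolysis (log2 fold change 0.35, standard error 0.07, adjusted p = 0.023), were higher at an adjusted p under 0.05 but below the threshold on the fold. For ITPKB, an inositol trisphosphate kinase, the value was log2 fold change 0.06, standard error 0.07, adjusted p = 0.96, and LRP5L had a log2 fold change of 0.07 (adjusted p = 0.98). SRD5A3-AS1, which shares the site of TMEM165, had a log2 fold change of -1.28 (adjusted p = 0.62) with at most 6 counts in any library.

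**Figure D3:**
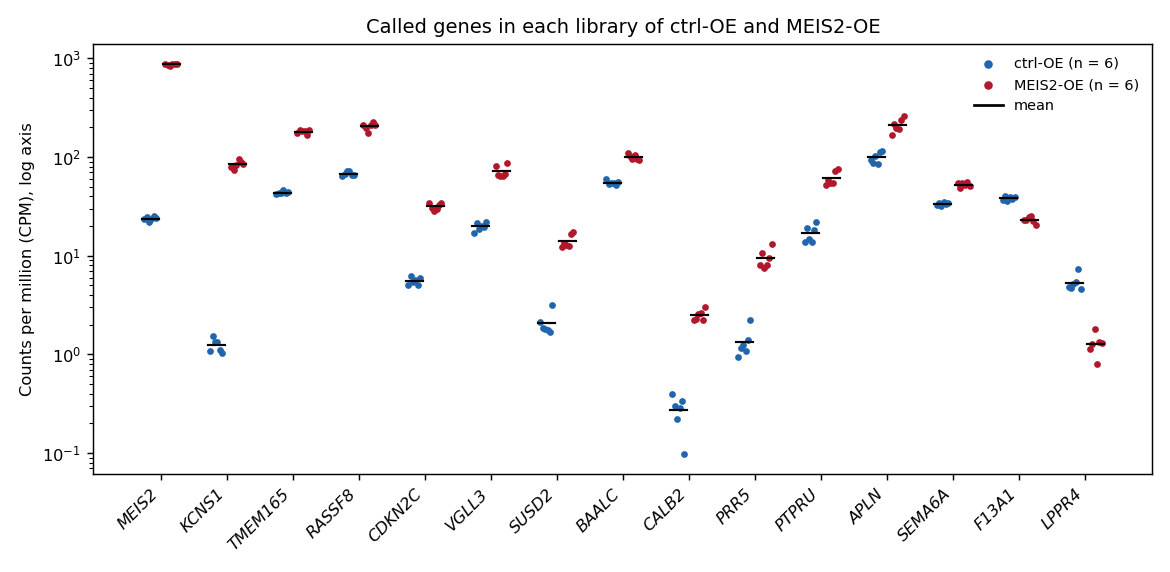
CPM of 15 called genes (x axis) in every library on a log y axis, with ctrl-OE in blue and MEIS2-OE in red (n = 6 each) and black lines at the group means. The groups are separate for each of the 15 genes, with KCNS1 rising from a mean of 1.23 to 84.1 CPM and LPPR4 falling from 5.34 to 1.28 CPM.

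Among the called genes with fewer than 9 letters of the leading site, VGLL3 and SUSD2 had the smallest p. VGLL3, a cofactor of TEAD transcription factors, ranged from 17.1 to 21.9 CPM (median 19.9) in ctrl-OE and from 63.7 to 86.8 CPM (median 66.6) in MEIS2-OE (log2 fold change 1.85, standard error 0.09, adjusted p = 4.0e-10). SUSD2, a sushi domain membrane protein, ranged from 1.70 to 3.16 CPM (median 1.82) and from 12.4 to 17.5 CPM (median 13.2) in the same order (log2 fold change 2.79, standard error 0.14, adjusted p = 1.6e-09). Both were separate between the groups. BAALC, a gene named from brain and acute leukemia, ranged from 52.6 to 60.1 CPM (median 54.1) in ctrl-OE and from 93.97 to 110.2 CPM (median 99.7) in MEIS2-OE (log2 fold change 0.87, standard error 0.05, adjusted p = 6.7e-09). PRR5, a subunit of mTOR complex 2, rose from a low level, with 0.938 to 2.23 CPM (median 1.19) in ctrl-OE and 7.44 to 13.1 CPM (median 8.78) in MEIS2-OE (log2 fold change 2.82, standard error 0.19, adjusted p = 5.3e-08). SRD5A3, a polyprenol reductase of protein glycosylation, starts 49744 bases from TMEM165 and ranged from 32.1 to 37.4 CPM (median 33.6) in ctrl-OE and from 57.6 to 66.9 CPM (median 60.9) in MEIS2-OE. The groups were apart (log2 fold change 0.86, standard error 0.06, adjusted p = 3.3e-08). TLR4, the receptor for lipopolysaccharide, ranged from 43.02 to 55.4 CPM (median 46.97) in ctrl-OE and from 80.5 to 98.2 CPM (median 82.3) in MEIS2-OE (log2 fold change 0.84, standard error 0.07, adjusted p = 4.3e-07).

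ST8SIA4, a polysialyltransferase that modifies NCAM, had a log2 fold change of 0.63 and LPL, lipoprotein lipase, of 0.67. ECEL1, a neuronal endopeptidase with 9 letters of the leading site, had a log2 fold change of 1.50. The 3 genes did not overlap between groups. DQ592230 had 0 counts in every ctrl-OE library and at most 8 in a MEIS2-OE library. BARX2, a homeobox gene, had at most 1 count in a ctrl-OE library and 5 to 15 in MEIS2-OE, and EGFL6 at most 1 and 3 counts, so no fold change is given for these 3 genes.

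Few genes were called lower, and the largest decrease at an appreciable level was seen in LPPR4, annotated as PLPPR4, a membrane protein of excitatory synapses. It ranged from 4.56 to 7.27 CPM (median 5.03) in ctrl-OE and from 0.795 to 1.82 CPM (median 1.28) in MEIS2-OE, with all MEIS2-OE libraries below all controls (log2 fold change -2.05, standard error 0.16, adjusted p = 6.0e-07). F13A1, the A subunit of coagulation factor XIII, ranged from 35.7 to 40.4 CPM (median 38.5) in ctrl-OE and from 20.6 to 25.3 CPM (median 22.8) in MEIS2-OE (log2 fold change -0.73, standard error 0.06, adjusted p = 6.2e-07). The groups did not overlap. IGFL2, a secreted IGF-like protein, fell from a mean of 1.99 to 0.720 CPM (log2 fold change -1.47, standard error 0.17, adjusted p = 4.6e-05). The calls of these 3 genes were kept in every alternative setting and with every library left out. Of the other 6, the following 5 were not. IGFBP6, an IGF-binding protein, had a log2 fold change of -0.70, MVP, the major vault protein, of -0.68 and NOV (CCN3) of -0.58, the last falling to -0.576 with the replicate block, under the threshold. HIST1H2AJ had at most 6 counts and AK311005 at most 5 in any library, and AK311005 did not pass with the block (adjusted p = 0.0584).

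Lists of pathway and cell type genes were compared with the counts over all tested genes, where 0.404% were called higher and 0.0491% lower and the median log2 fold change was -0.01. None of the 22 tested neural stem cell markers, 17 neuronal markers, 6 pluripotency markers and 16 neural crest and mesenchyme markers was called or passed at an adjusted p under 0.05 by edgeR. At an unadjusted p under 0.05 there were 6, 2, 0 and 4, and by DESeq2 HES5 alone of these lists passed after adjustment. Their median log2 fold changes were -0.11, -0.13, -0.06 and 0.01. The summed level of the stem cell markers ranged from 4213 to 5049 CPM in MEIS2-OE and from 4293 to 5282 CPM in ctrl-OE, and that of the neuronal markers from 757 to 878 CPM and from 759 to 976 CPM. Of 15 astrocyte and oligodendrocyte markers, GJA1 (connexin 43) passed at log2 fold change 0.21, standard error 0.05, adjusted p = 0.049 without being called, and of 9 endothelial and blood markers KDR, a VEGF receptor, did (log2 fold change 0.36, standard error 0.09, adjusted p = 0.047). With the replicate block, where 2.11% of all tested genes were higher and 1.07% lower at an adjusted p under 0.05, 4 stem cell markers were lower (SOX9, HES5, ZIC1 and ZIC2), 2 neural crest and mesenchyme markers were higher (SNAI2 and POSTN), and the astrocyte and oligodendrocyte genes SLC1A3 and CSPG4 and the endothelial gene TIE1 were also lower. Under the block HES5, an effector of NOTCH, was called lower (log2 fold change -2.71, adjusted p = 0.0073) at a mean of 0.574 CPM in ctrl-OE and 0.0780 CPM in MEIS2-OE.

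Of the 19 TALE homeodomain genes, all tested, MEIS2 alone was called. PKNOX1 was higher (log2 fold change 0.45, standard error 0.06, adjusted p = 1.8e-04) and PKNOX2 lower (log2 fold change -0.33, standard error 0.07, adjusted p = 0.019) at an adjusted p under 0.05. Both are TALE factors that bind PBX proteins, and neither reached the fold threshold. The most abundant PBX gene, PBX2, had a log2 fold change of 0.01 with an adjusted p of 0.99. Among 17 tested genes of the striatal and olfactory bulb lineage, CALB2, which encodes the calcium-binding protein calretinin of interneurons, was called. It ranged from 0.0971 to 0.395 CPM (median 0.291) in ctrl-OE, with 2 to 8 counts, and from 2.22 to 3.04 CPM (median 2.43) in MEIS2-OE, with 43 to 59 counts (log2 fold change 3.17, standard error 0.20, adjusted p = 3.3e-08). FOXP2, a transcription factor of striatal neurons, was higher at an adjusted p under 0.05 (log2 fold change 0.44, standard error 0.08, adjusted p = 0.011). Of 17 retinoic acid genes, CYP26A1, which degrades retinoic acid, was called at a low level (log2 fold change 2.30, standard error 0.30, adjusted p = 2.7e-04), with 0.0851 to 0.631 CPM (median 0.263) in ctrl-OE and 0.930 to 1.97 CPM (median 1.54) in MEIS2-OE. The retinol dehydrogenase gene RDH10 was higher (0.44) and the carrier gene CRABP2 lower (-0.25) at an adjusted p under 0.05. Of 17 tested genes at loci for restless legs syndrome, MEIS2 itself was the only one to pass, and with the replicate block PTPRD, a receptor tyrosine phosphatase, passed as well (log2 fold change -0.14, adjusted p = 0.0266 by edgeR). The block also added EBF1 as higher in the striatal list, and made the retinoic acid list 3 higher and 2 lower.

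In the NOTCH list, 2 of 24 tested genes were called higher, beside 0.404% of all tested genes. They were HEY1 (log2 fold change 1.33, standard error 0.13, adjusted p = 5.6e-06) and HEYL (log2 fold change 0.94, standard error 0.15, adjusted p = 0.0027), both transcriptional repressors downstream of NOTCH receptors. HEY1 ranged from 0.728 to 1.15 CPM (median 0.955) in ctrl-OE and from 2.28 to 2.60 CPM (median 2.36) in MEIS2-OE without overlap, whereas HEYL overlapped between groups. In the WNT list 1 of 42 was called, the secreted antagonist DKK2 (log2 fold change 0.67, standard error 0.14, adjusted p = 0.018), and in the BMP and TGF-beta list 1 of 36, the BMP antagonist GREM1 (log2 fold change 0.96, standard error 0.20, adjusted p = 0.023). Both of these calls were lost in several alternatives. The activin receptor gene ACVR1, which holds 10 letters of the leading site, was higher at an adjusted p under 0.05 (0.33). Of 26 genes of the feedback on FGF and ERK signalling none was called, but 4 were higher at an adjusted p under 0.05, SPRY1, SPRY2, SPRED1 and PHLDA1, against 0.971% of all tested genes. SPRY2, a Sprouty inhibitor of receptor tyrosine kinases, was the furthest from 0 (log2 fold change 0.53, standard error 0.05, adjusted p = 3.4e-06). With the replicate block, 8 of the 26 were higher and none lower, beside 2.11% and 1.07% of all tested genes. The block gave 2 higher and 2 lower genes in each of the WNT and BMP lists. In the NOTCH list it gave 2 higher and 1 lower, the last being HES5, which also passed by DESeq2.

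In the axon guidance list, 2 of 51 tested genes were called higher, beside 0.404% of all tested genes. SEMA6A, a transmembrane semaphorin, ranged from 31.9 to 34.8 CPM (median 33.8) in ctrl-OE and from 48.1 to 55.4 CPM (median 53.3) in MEIS2-OE (log2 fold change 0.65, standard error 0.05, adjusted p = 2.9e-07). EPHA4, an ephrin receptor, ranged from 8.17 to 11.7 CPM (median 9.84) and from 16.8 to 20.3 CPM (median 18.3) in the same order (log2 fold change 0.90, standard error 0.10, adjusted p = 2.9e-05). Both were separate between groups. At an adjusted p under 0.05 alone ROBO3, SEMA3A and NRP2 were also higher, by 0.27 to 0.44 on the log2 scale, and EPHA7 lower (-0.54). Among 31 angiogenesis genes APLN, the ligand of the apelin receptor, was called. It ranged from 85.7 to 116 CPM (median 98.2) in ctrl-OE and from 166 to 259 CPM (median 206) in MEIS2-OE (log2 fold change 1.08, standard error 0.10, adjusted p = 3.5e-06). KDR, NRP2 and THBS1 passed without being called, and with the block 10 of the 31 were higher and 1 lower at an adjusted p under 0.05, beside 2.11% and 1.07% of all tested genes, with PDGFA also called. In the axon guidance list 8 of the 51 were higher and 3 lower with the block. Of 27 wound healing genes F13A1 was called lower, and TFPI2, an inhibitor of serine proteases, was higher without being called (log2 fold change 0.52, standard error 0.08, adjusted p = 0.001).

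Of 21 tested genes of calcium pumps and store-operated entry 2 were called higher, STIM2 and TMEM165, beside 0.404% of all tested genes. Both hold letters of the leading site, 12 in STIM2 and 13 in TMEM165, and the list was chosen with earlier results known. Of 45 matrix genes LAMA4 (0.43) and COL4A1 (0.36) were higher at an adjusted p under 0.05, of 40 synapse adhesion genes THBS1 (0.39) and of 24 hypoxia and glycolysis genes HK2. The last of these holds 11 letters of the leading site. No gene passed at an adjusted p under 0.05 by edgeR in the lists of hedgehog signalling (17 tested), ion channels and transmitter receptors (51), interferon response (23), p53 targets (28), unfolded protein response (28), sterol and fatty acid synthesis (30), S phase (26) or mitosis (26). At an unadjusted p under 0.05 these lists held 1, 5, 1, 2, 4, 0, 2 and 3 genes, and by DESeq2 1 mitosis gene, KIF20A, passed after adjustment. The medians of these lists lay between -0.08 and 0.05. With the block, where 2.11% of all tested genes were higher and 1.07% lower, 3 mitosis genes were lower and 2 genes of the unfolded protein response and 1 p53 target higher. The matrix and synapse lists then had 2 higher and 3 lower genes each, and the hypoxia list 3 higher.

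The consensus of MEIS proteins, TGACAG on either strand, was held within 250 bases before to 50 bases after a start by 49.9% of all genes with a position and by 50.7% of the genes called higher. Among the 53 called genes with fewer than 9 letters of the leading site the share was 45.3%. The paper located most MEIS binding in hNSC away from start sites, which this window leaves out. A match of letters also does not show binding, so these shares cannot tell whether the called genes are bound by MEIS2.

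The knockout gives an independent set of libraries for the same gene. In MEIS2-KO, MEIS2 mRNA ranged from 10.2 to 13.04 CPM (median 11.8), against 22.4 to 26.2 CPM (median 25.2) in ctrl-KO, with all knockout libraries below all controls (log2 fold change -1.08, standard error 0.06, adjusted p = 4.0e-09). Of the 74 genes called higher in MEIS2-OE, 68 were tested in the knockout. KCNS1 was not, since it did not reach 10 counts over the MEIS2-KO and ctrl-KO libraries. There 10 of them, MEIS2 included, were lower and 9 higher at an adjusted p under 0.05, while 7.03% of all tested genes were lower and 7.16% higher. With the replicate block 14 were lower and 13 higher, when 24.9% of all tested genes passed. The median log2 fold change of the 68 in MEIS2-KO was 0.11. Of the 9 genes called lower in MEIS2-OE, 3 were higher in MEIS2-KO (F13A1, IGFBP6 and MVP) and none lower at an adjusted p under 0.05.

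Opposite directions in activation and knockout were seen for CDKN2C, BAALC, ST8SIA4, LPL, EPHA4, SPOCK1, ELMOD1, LRP2 and CDH20. The call of CDH20 in MEIS2-OE was kept in only 2 of the 12 fits with a library left out. CDKN2C ranged from 4.46 to 7.68 CPM (median 6.38) in ctrl-KO and from 3.65 to 4.67 CPM (median 4.32) in MEIS2-KO, with slightly overlapping groups (log2 fold change -0.58, standard error 0.11, adjusted p = 0.0013). BAALC ranged from 112 to 133 CPM (median 127) in ctrl-KO and from 89.7 to 105 CPM (median 95.6) in MEIS2-KO without overlap (log2 fold change -0.38, standard error 0.05, adjusted p = 3.5e-05). ST8SIA4 ranged from 77.1 to 82.8 CPM (median 78.9) and from 57.5 to 63.7 CPM (median 59.8) in the same order, again without overlap (log2 fold change -0.40, standard error 0.04, adjusted p = 4.3e-06). For LPL the decrease was small (log2 fold change -0.21, standard error 0.05, adjusted p = 0.0045), as for EPHA4 (log2 fold change -0.19, standard error 0.06, adjusted p = 0.031). The same direction in both was seen for genes that include PTPRU, APLN, GDAP1L1, MCHR1, ANKRD1, ITGA11, DKK2 and GREM1, all higher in MEIS2-OE and in MEIS2-KO. GREM1 ranged from 10.7 to 17.4 CPM (median 14.5) in ctrl-KO and from 35.7 to 57.8 CPM (median 40.8) in MEIS2-KO, with no overlap (log2 fold change 1.60, standard error 0.12, adjusted p = 1.2e-07). ANKRD1, a target of YAP, ranged from 18.6 to 35.3 CPM (median 31.1) and from 41.8 to 67.5 CPM (median 58.02) (log2 fold change 0.92, standard error 0.12, adjusted p = 3.3e-05). APLN ranged from 67.2 to 102 CPM (median 91.9) and from 116 to 174 CPM (median 139) (log2 fold change 0.67, standard error 0.09, adjusted p = 4.5e-05), and neither overlapped. TMEM165 had a log2 fold change of 0.05 in the knockout, with an adjusted p of 0.59.

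**Figure D4:**
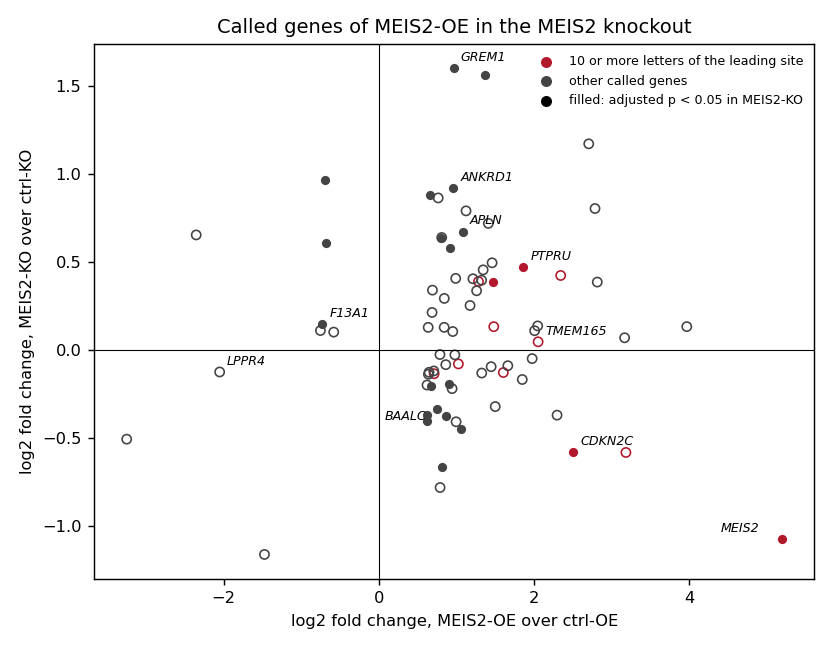
Log2 fold change of each called gene in MEIS2-OE over ctrl-OE (x axis) and in MEIS2-KO over ctrl-KO (y axis); filled points have an adjusted p under 0.05 in the knockout, and red points hold 10 or more letters of the leading site. The genes higher in MEIS2-OE spread to both sides of 0 on the y axis, 10 of 68 lower and 9 of 68 higher in the knockout at that threshold.

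MEIS1-OE differs from MEIS2-OE in the guide and in the paralog raised. In the direct test, 49 of the 74 genes called higher were above their level in MEIS1-OE at an adjusted p under 0.05, 1 was below (SPOCK1) and 24 did not pass, while 2.13% of all tested genes were above and 4.32% below. Without the library MEIS1-OE replicate 3, 55 of the 74 were above and 1 below, beside 6.45% and 8.52% of all tested genes. All 13 called genes with 10 letters or more were above MEIS1-OE. Their log2 fold changes of MEIS1-OE over ctrl-OE ranged from -0.96 to 0.19 with a median of -0.02, beside a median of 1.86 in MEIS2-OE. Both values use the same ctrl-OE libraries. The genes were called higher from the same MEIS2-OE libraries that enter the direct test. An excess of called genes above MEIS1-OE, here and in the next paragraph, is therefore partly set by that choice. These counts describe the called genes and do not test for a difference between the paralogs. KCNS1 ranged from 0.659 to 1.47 CPM (median 1.31) in MEIS1-OE and TMEM165 from 39.9 to 45.4 CPM (median 42.8). These ranges overlapped those of ctrl-OE. CDKN2C was lower in MEIS1-OE than in any control, from 2.23 to 3.63 CPM (median 2.89).

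For the 53 called genes with fewer than 9 letters the medians were 0.96 in MEIS2-OE and 0.41 in MEIS1-OE, 29 were above MEIS1-OE and 1 below, and 17 were also called higher in MEIS1-OE against the same controls, as were 2.17% of all tested genes. BAALC ranged from 99.5 to 107 CPM (median 103) in MEIS1-OE, and MEIS2-OE differed from MEIS1-OE by -0.05 on the log2 scale (95% confidence interval -0.15 to 0.05). The difference was -0.01 for ST8SIA4 (-0.12 to 0.11), -0.10 for TLR4 (-0.23 to 0.04) and -0.15 for APLN (-0.49 to 0.18). For LPPR4, lower in MEIS2-OE, it was 0.16 (-0.28 to 0.60). VGLL3 was higher in MEIS2-OE than in MEIS1-OE by 0.51 (0.22 to 0.80, adjusted p = 0.023 from edgeR). The log2 fold changes of VGLL3 over ctrl-OE were 1.85 in MEIS2-OE and 1.33 in MEIS1-OE.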

How the data were processed

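RNA-seq counts of hNSC were analysed for MEIS2-OE and ctrl-OE, with MEIS1-OE, MEIS2-KO and ctrl-KO for comparison (n = 6 each). As deposited by the authors, the values are raw counts of reads per gene without normalization, from stranded poly-A libraries sequenced for 100 bases at both ends, aligned to hg19 (GRCh37) with STAR and counted with HTSeq. The submitters' processing notes name Trimmomatic 0.39 and STAR 2.7.0a, and the study's methods name another STAR release. The gene annotation and the strand setting are not given in the sources used here. Groups were taken from the labels.

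Genes with at least 10 counts over the 12 libraries of a comparison were fitted with edgeR 4.0.16 (TMM, quasi-likelihood, prior count 0.125; R 4.3.3), tested two-sided, with Benjamini-Hochberg adjustment across the whole set of tested genes. The main fit has no block. Libraries of the same number deviated together in MEIS2-OE and ctrl-OE (mean correlation of deviations 0.382, lowest 0.195, all 6 pairs above 0.1) and in MEIS2-KO and ctrl-KO (0.266, lowest 0.104). In MEIS2-OE and ctrl-OE, pairs of other numbers averaged -0.078, but 8 of these 30 pairs were also above 0.1. The highest, MEIS2-OE replicate 5 with ctrl-OE replicate 6, reached 0.426, above the 0.195 of replicate 5 with its own number. The pairing of the numbers was thus taken from the data and is not certain. Blocked values are given where they change a result. Libraries of one group differed by more than counting error. Alternatives were RLE size factors, other filters and prior counts, fits of more libraries, DESeq2 1.42.0 with and without ashr 2.2.63, and leaving out each library. The fit was tested on simulated data. Confidence intervals of differences use the t distribution and the standard errors of the fit.

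Positions and start sites come from GENCODE v44lift37, with older symbols matched through RefSeq synonyms (16199 of 18336 genes matched, 1196 by an older symbol). Named genes are MEIS2 and MEIS1, the 20 called higher with the smallest p, the 9 called lower, called members of the lists, the 2 most abundant members of each list and genes within 500 kb of MEIS2 or KCNS1; members that passed at adjusted p alone, holders of the site letters and genes compared with the knockout or MEIS1-OE were chosen for naming with their values in view. The comparison, its gene lists and the site search were chosen with earlier results of these data known. Genes that mark sex were left out, and a few other genes are not reported here.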

Additional observations from a re-analysis of the deposited data

Results flagged for a closer look

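In 21 of 206 tested groups of 6 libraries of the named genes, the highest or lowest library lay far from the other 5 relative to the range of the group, where about 1 in 20 is flagged by chance. The library ctrl-OE replicate 6 accounted for 11 of these. It was the highest ctrl-OE library for NES (1220 CPM, with the next at 981), TUBB3 (266), NOTCH3 (421), SMO (182), PTPRF (274), MCM7 (513), GJA1 (128), SUSD2 (3.16) and PRR5 (2.23), and the lowest for GABBR1 (104) and STAT2 (88.8). Of the 11 genes SUSD2 and PRR5 were called, and in both all MEIS2-OE libraries lay above this library. With it left out, 78 of the 83 calls were kept and 9 were added. In the other ctrl-OE libraries, BAALC was highest in replicate 1 at 60.1 CPM, ATP2C1 in replicate 4 at 125 CPM and LPPR4 in replicate 5 at 7.27 CPM. Replicate 3 was lowest for MEIS1 at 16.7 CPM and highest for WFDC2 at 0.574 CPM. In MEIS2-OE, replicate 1 was highest for MAP2 (304 CPM), HMGCS1 (822 CPM) and AK311005 (0.0517 CPM, a single count), and replicate 6 was highest for PRRT4 (8.09 CPM) and lowest for EFNB2 (222 CPM).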

How the results depend on the processing

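The 83 calls numbered between 68 (DESeq2 with ashr) and 100 (replicate block) over the 9 alternatives, and all had the direction of the main fit wherever they were tested. Of the 83, 58 were kept under all 9 alternatives and with every library left out. The number of genes called lower, 9 in the main fit, was 15 with the replicate block, 15 with all 36 libraries in one fit and 4 with DESeq2 and ashr. The number at adjusted p alone, 212, was 582 with the replicate block. With 1 library left out at a time, 73 to 87 genes were called, 66 to 78 higher and 6 to 9 lower, 160 to 231 passed at adjusted p alone, and the log2 fold change of MEIS2 lay between 5.17 and 5.21. Calls of the 13 genes with 10 letters or more were kept throughout for 12, and the call of NBL1 was not. The calls of DKK2, GREM1, IGFBP6, MVP, NOV, HIST1H2AJ and AK311005 were lost under some settings. So were those of BARX2, EGFL6, DQ592230, SPOCK1 and CDH20. WFDC2 passed without ctrl-OE replicate 3. The cause was not tested. The number of genes called in MEIS2-KO was 113 with DESeq2 and ashr, against 353, and 288 to 408 with 1 library left out; without MEIS1-OE replicate 3 the genes that differed between MEIS2-OE and MEIS1-OE at adjusted p alone numbered 2727 in place of 1183. With the block the call of EGFL6 was lost as well (adjusted p = 0.0613 by edgeR). The 3 other windows around the start sites were added after seeing the data.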
